A study of Homo sapiens with 4 samples.

Results

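A list of 45 interferon-stimulated genes was followed in RNA-seq libraries of MCF10A cells, out of 63856 genes in the count table. The list was drawn up by gene symbol, with earlier results of these data known, and matched to the table through Ensembl identifiers. All 45 were found, DDX58 under its newer name RIGI. MCF10A is a non-tumorigenic human breast epithelial line. Unmodified wild type cells (WT) were compared with cells that stably overexpressed HSF1, the transcription factor of the heat shock response, from HSF1 cDNA in the lentiviral vector pLVX-Puro (HSF1-pLVX). There were 2 libraries of each group, described as biological replicates. Both groups were grown in DMEM/F12 with horse serum, insulin, hydrocortisone, EGF and cholera toxin, and the labels name no interferon treatment or infection in either. HSF1-pLVX cells had also been transduced and selected with puromycin, and no library of empty-vector cells was analysed. HSF1 itself, the vector, the selection and the separate culture therefore cannot be told apart. The sources used here do not say whether the HSF1-pLVX line was a pool or a clone.

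Interferons bind receptors at the cell surface and activate Janus kinases, which phosphorylate STAT proteins. With IRF9 these form a complex that binds the interferon-stimulated response element (ISRE) in promoters and switches on genes whose products block viral entry, degrade or sequester viral RNA and modify proteins. Epithelial cells keep many of these genes on at a low level without added interferon. HSF1 is not part of this pathway in its textbook form, and it is known for chaperone genes.

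The deposited counts were tested with edgeR's quasi-likelihood test over the 15830 genes that passed the filter on low counts. A gene was called at a Benjamini-Hochberg adjusted p of 0.05, and levels are given as CPM, in which TMM-adjusted library sizes were made equal. HSF1 was measured at 200.4 and 189 CPM in WT and 982 and 999 CPM in HSF1-pLVX libraries, a log2 fold change of 2.35 (SE 0.10, adjusted p = 1.14e-10). The libraries held between 18688109 and 24184285 counts. Over all genes tested 32.7% were called higher and 33.2% lower in HSF1-pLVX cells, 65.9% in either direction, with a median log2 fold change of 0.02, so a call by itself was common. With a change of at least 2-fold added, 14.9% were higher and 14.0% lower. The epithelial label was checked against fixed markers. The basal epithelial list held KRT5, KRT6A, KRT14, KRT17, TP63, ITGA6, CDH1 and EPCAM. CDH1 and EPCAM are not particular to basal cells, and the paper counts EPCAM-low cells as basal. All 8 listed genes were detected, with KRT5 between 2088 and 4889.8 CPM. In HSF1-pLVX cells 3 of the 8 were higher and 5 lower, KRT14 with a log2 fold change of -3.55 (SE 0.10, adjusted p = 4.12e-12). The counts of this mixed list do not measure basal identity. The 5 luminal epithelial markers summed to 4873 and 4955 CPM in WT and 947 and 771 CPM in HSF1-pLVX libraries, with 4 lower and 1 higher and a median log2 fold change of -1.73. The leukocyte marker PTPRC had 0 counts in all 4 libraries, which allows up to 3 counts in each. Of the 8 leukocyte markers 3 passed the filter, with 2 higher and 1 lower, and CD14 went from 22 and 10 counts in WT to 1470 and 1652 in HSF1-pLVX libraries. The summed level of the leukocyte markers was 22.7 to 27.4 CPM in WT and 65.8 to 89.2 CPM in HSF1-pLVX libraries, and its part in the results below was not tested. The endothelial markers summed to at most 1.41 CPM in any library. Of 7 fibroblast markers 2 passed the filter, with DCN higher and COL1A1 not called.

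Of the 45 interferon-stimulated genes 43 were tested, and more of them fell than rose. In HSF1-pLVX cells 25 members (58.1%) were lower and 12 (27.9%) were higher, beside 33.2% and 32.7% of all genes. At least 2-fold, 14 members (32.6%) were lower and 3 (6.98%) higher, beside 14.0% and 14.9% of all genes. The median log2 fold change of the 43 was -0.54. Both HSF1-pLVX libraries lay below both WT libraries in 26 members (60.5%) and above them in 12 (27.9%), beside 41.0% and 42.1% of all genes tested, so groups that do not overlap were common too. The 6 members that were not called were OAS1, OAS2, TRIM25, HERC5, EIF2AK2 and IRF9. The fall did not run through every function. All tested members of the IFIT family, the large GTPases, the ADP-ribosylation group, the SAMD9 pair and the nucleotide and RNA enzymes were lower, all 3 membrane restriction factors were higher, and no member of the OAS family was lower. These groups were set by hand, and the pattern by function depends on them. IFI6, also a membrane protein, had a log2 fold change of -0.87 and was placed outside the membrane group. In bulk RNA, a smaller share of cells expressing a gene and less of its RNA per cell cannot be told apart.

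**Figure D1:**
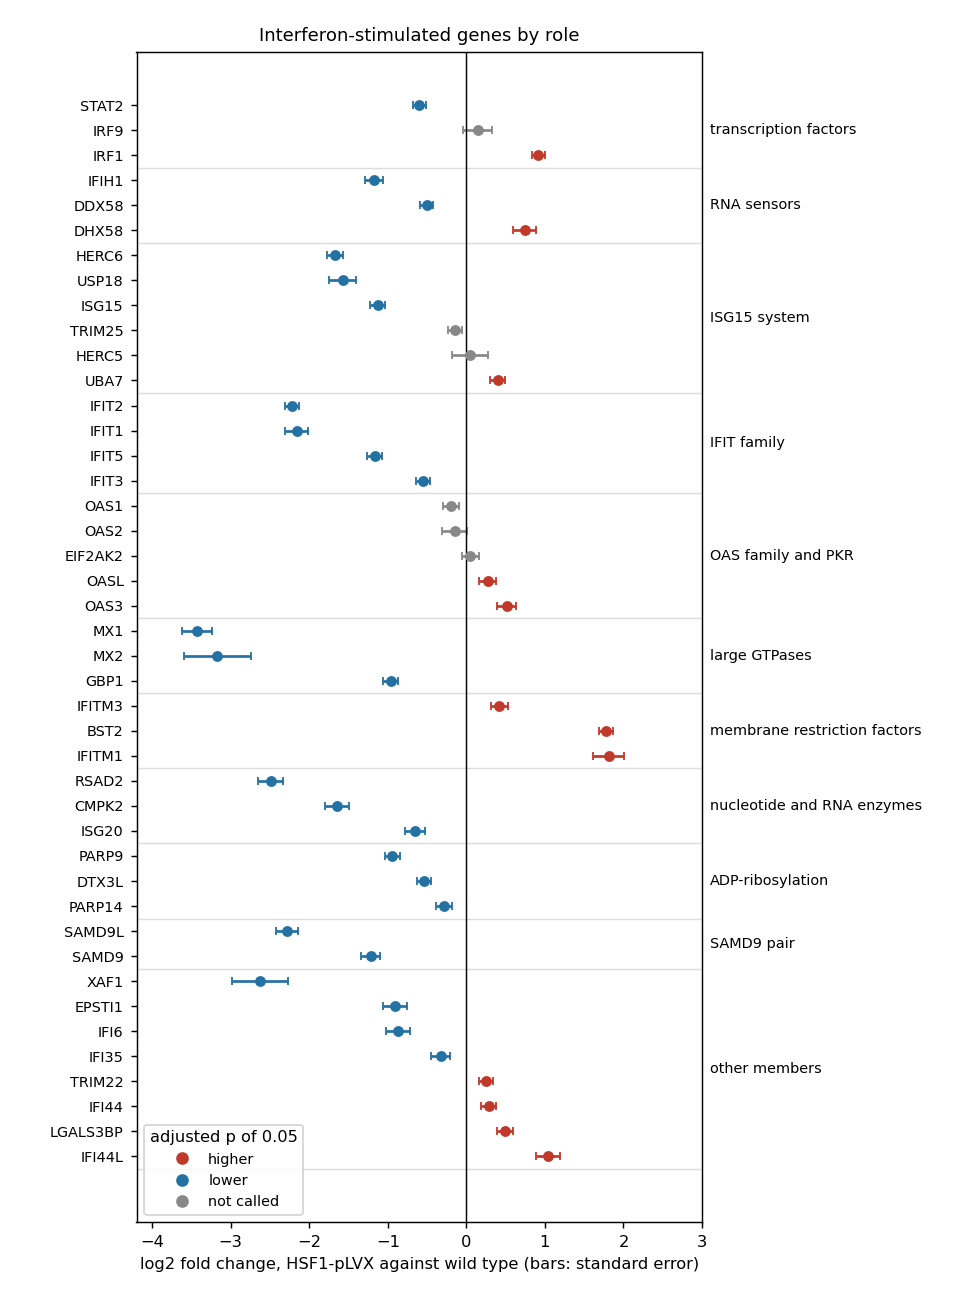
Log2 fold change of HSF1-pLVX against WT cells (x axis, 2 libraries of each) for the 43 tested members, grouped by the role of the gene product, with points coloured by call at an adjusted p of 0.05 and bars giving the standard error. The GTPases MX1 and MX2 lie furthest to the left at -3.43 and -3.17, and BST2 and IFITM1 furthest to the right at 1.77 and 1.81.

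In WT cells the members covered a wide range of levels. Per kilobase of counted exon, IFITM3 was the most abundant at 394 CPM per kb, followed by IFI6 at 134, ISG15 at 101 and LGALS3BP at 96.4, each as the WT mean of 2 libraries. In HSF1-pLVX cells the order was IFITM3 at 527, LGALS3BP at 136, BST2 at 117 and IFI6 at 73.0 CPM per kb. MX1 was at rank 21 of the 45 in WT and at rank 40 in HSF1-pLVX cells. At the low end MX2, XAF1 and the rows used for IFI27 and IRF7 were all below 0.42 CPM per kb in WT cells. A second row for IRF7, on an alternate contig, was at 1.23 CPM per kb in WT cells and was left out of these ranks.

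The response element can be seen in the promoters of members from both directions of change. The windows shown run from 250 bases before to 50 bases after an annotated start site and come from RefSeq (GRCh38.p14), each 5′ to 3′ on the strand of its gene, with capitals marking every match to the ISRE core motif, searched on both strands. They are MX1 (chr21:41420308-41420607, plus strand), the largest fitted fall, IFIT1 (chr10:89392373-89392672, plus) and IFIT3 (chr10:89327747-89328046, plus), neighbours that fell by different amounts, DTX3L (chr3:122564088-122564387, plus), whose match is shared with PARP9, and BST2 (chr19:17405581-17405880, minus), IFITM1 (chr11:313790-314089, plus) and IFI44L (chr1:78620198-78620497, plus), the 3 largest rises.
MX1: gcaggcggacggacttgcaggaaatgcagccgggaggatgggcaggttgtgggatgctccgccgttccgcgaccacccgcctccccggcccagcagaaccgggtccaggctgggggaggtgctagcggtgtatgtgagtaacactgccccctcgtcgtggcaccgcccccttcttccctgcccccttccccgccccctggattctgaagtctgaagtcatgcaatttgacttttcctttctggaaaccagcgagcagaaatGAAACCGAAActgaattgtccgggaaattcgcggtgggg
IFIT1: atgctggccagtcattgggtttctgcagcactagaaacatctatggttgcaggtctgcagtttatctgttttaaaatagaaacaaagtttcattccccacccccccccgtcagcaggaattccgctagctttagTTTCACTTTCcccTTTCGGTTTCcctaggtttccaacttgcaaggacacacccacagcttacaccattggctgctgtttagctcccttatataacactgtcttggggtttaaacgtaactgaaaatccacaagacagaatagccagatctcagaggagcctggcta
IFIT3: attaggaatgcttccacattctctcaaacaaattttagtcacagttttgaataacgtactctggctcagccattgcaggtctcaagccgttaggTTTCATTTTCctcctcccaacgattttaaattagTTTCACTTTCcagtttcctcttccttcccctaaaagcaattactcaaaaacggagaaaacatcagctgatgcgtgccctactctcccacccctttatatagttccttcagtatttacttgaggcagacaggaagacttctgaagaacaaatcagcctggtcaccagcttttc
DTX3L: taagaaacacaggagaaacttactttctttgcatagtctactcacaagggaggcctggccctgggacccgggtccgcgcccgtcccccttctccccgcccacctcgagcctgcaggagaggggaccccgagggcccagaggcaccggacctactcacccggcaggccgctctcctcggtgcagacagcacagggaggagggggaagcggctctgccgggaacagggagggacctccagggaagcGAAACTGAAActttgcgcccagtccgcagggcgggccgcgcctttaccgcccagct
BST2: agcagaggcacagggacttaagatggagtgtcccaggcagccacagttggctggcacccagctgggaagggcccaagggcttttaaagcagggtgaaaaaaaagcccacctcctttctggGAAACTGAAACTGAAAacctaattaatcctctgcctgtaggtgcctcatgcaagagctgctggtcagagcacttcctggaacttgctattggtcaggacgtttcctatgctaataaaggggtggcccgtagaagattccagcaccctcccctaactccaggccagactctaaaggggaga
IFITM1: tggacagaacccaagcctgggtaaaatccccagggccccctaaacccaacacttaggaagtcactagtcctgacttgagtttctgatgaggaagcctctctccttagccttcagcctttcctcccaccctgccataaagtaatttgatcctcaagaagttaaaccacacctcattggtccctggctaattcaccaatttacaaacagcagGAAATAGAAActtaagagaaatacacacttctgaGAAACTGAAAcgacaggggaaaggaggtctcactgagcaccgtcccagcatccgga
IFI44L: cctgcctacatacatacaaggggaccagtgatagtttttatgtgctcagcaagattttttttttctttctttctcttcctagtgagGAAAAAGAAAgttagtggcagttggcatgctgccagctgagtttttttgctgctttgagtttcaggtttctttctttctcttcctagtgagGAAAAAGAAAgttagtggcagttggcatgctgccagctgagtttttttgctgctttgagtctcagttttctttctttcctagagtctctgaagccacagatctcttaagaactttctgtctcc

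A RefSeq promoter window was at hand for 36 of the 45 members, with 46 windows among them. The members with none were DHX58, IFIT2, IRF7, MX2, OAS2, OASL, TRIM22, UBA7 and USP18. The ISRE core, searched on both strands, was in 29 of the 46 member windows (63%), from 25 of the 36 genes, and in 3.57% of all 35116 promoter windows. Among members with a window it was in 15 of 22 called lower and in 7 of 8 called higher, IRF1 being the exception, so exact matches occurred in both directions. The tested members with a match had a median log2 fold change of -0.60, and those without had -0.51. The GAS core, the gamma-activated site, searched on both strands, was in 11 of the 46 windows (23.9%), from 10 genes, and in 7.66% of all windows. It overlaps the ISRE letters in places, as in the windows of IFITM1 and BST2, where a GAS match and an ISRE match share 3 bases. The heat shock element, searched on both strands, was in the windows of 0 members and in 0.49% of all windows. A match is a match of letters, and a window without one says only that the letters are not in these 300 bases.

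The transcription factors of the pathway moved in different directions. STAT2, a subunit of the complex that binds the ISRE, was measured at 138 and 140.2 CPM in WT and 93.4 and 90.3 CPM in HSF1-pLVX libraries, and fell by 0.60 on the log2 scale (SE 0.08, adjusted p = 2.01e-05). IRF9, its DNA-binding partner, was at 5.17 and 5.44 CPM in WT and 6.57 and 5.08 CPM in HSF1-pLVX libraries. The IRF9 groups overlapped, with a log2 fold change of 0.14 (SE 0.19, adjusted p = 0.512), and 48.4% of its counted bases are shared with a second gene on the same strand, so its counts are uncertain. IRF1, an activator induced by interferon gamma, rose from 66.2 and 65.3 CPM in WT to 127 and 121 CPM in HSF1-pLVX libraries, a log2 fold change of 0.92 (SE 0.08, adjusted p = 2.74e-07). Its libraries lay close together within each group, and 22.0% of its counted bases lie opposite the antisense gene IRF1-AS1, which had 127 to 154 counts per library. Whether the counting used strand is not stated. IRF7, which amplifies interferon production, was not tested on its main row, with 8 and 4 counts in WT and 1 and 2 in HSF1-pLVX libraries. The ratio of HSF1-pLVX to WT counts was 0.208 (exact 95% interval 0.0376 to 0.769, counting error only). A second row for IRF7 on an alternate contig, looked up after the values were seen, held 63 and 58 counts in WT and 17 and 14 in HSF1-pLVX libraries, with a log2 fold change of -2.22 (SE 0.29, adjusted p = 9.95e-06). With both rows summed the ratio was 0.212 (0.141 to 0.311).

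The sensors of viral RNA split in the same way. IFIH1, which encodes MDA5, went from 124 and 123 CPM in WT to 62.3 and 46.8 CPM in HSF1-pLVX libraries, a log2 fold change of -1.18 (SE 0.11, adjusted p = 4.52e-07). DDX58, which encodes RIG-I, was at 120.4 and 129 CPM in WT and 88.3 and 87.0 CPM in HSF1-pLVX libraries and fell by 0.51 on the log2 scale (SE 0.08, adjusted p = 0.000105). DHX58 encodes LGP2, a regulator of both sensors that lacks their signalling domains. Its level rose from 7.51 and 6.46 CPM in WT to 12.4 and 10.9 CPM in HSF1-pLVX libraries, and the log2 fold change was 0.74 (SE 0.15, adjusted p = 0.000469).

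ISG15 is a ubiquitin-like protein that is attached to other proteins by its own enzymes. ISG15 was at 103 and 86.5 CPM in WT and 43.4 and 43.3 CPM in HSF1-pLVX libraries, a log2 fold change of -1.13 (SE 0.10, adjusted p = 1.21e-07). USP18, the protease that removes ISG15 and damps receptor signalling, was at 11.2 and 10.2 CPM in WT and 4.06 and 3.02 CPM in HSF1-pLVX libraries and fell by 1.58 on the log2 scale (SE 0.18, adjusted p = 2.33e-06). UBA7, the activating enzyme of the system, rose from 29.4 and 27.4 CPM in WT to 37.5 and 37.4 CPM in HSF1-pLVX libraries, a log2 fold change of 0.40 (SE 0.09, adjusted p = 0.00148). TRIM25, a ligase that acts on RIG-I, was not called, at 122 and 128 CPM in WT and 120.2 and 105 CPM in HSF1-pLVX libraries with a log2 fold change of -0.15 (SE 0.09, adjusted p = 0.168). The ligase genes HERC6 and HERC5 lie side by side on chromosome 4 (hg38 88378739 to 88506163). HERC6 was at 107 and 100.1 CPM in WT and 35.7 and 29.2 CPM in HSF1-pLVX libraries, a log2 fold change of -1.67 (SE 0.10, adjusted p = 3.46e-09). HERC5, the main ligase for ISG15 in human cells, was at 4.95 and 3.23 CPM in WT and 4.46 and 3.98 CPM in HSF1-pLVX libraries with overlapping groups, and its log2 fold change was 0.05 (SE 0.23, adjusted p = 0.865). Within this pair the fitted values lay 1.72 apart.

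The IFIT genes encode proteins that bind viral RNA and block its translation, and the 4 tested lie together on chromosome 10 (hg38 89283694 to 89421001). All 4 were lower in HSF1-pLVX cells. IFIT2 was at 195 and 197 CPM in WT and 43.4 and 40.5 CPM in HSF1-pLVX libraries, a log2 fold change of -2.22 (SE 0.09, adjusted p = 7.64e-11). IFIT1, which recognizes the cap of foreign RNA, was at 65.3 and 62.2 CPM in WT and 17.2 and 11.0 CPM in HSF1-pLVX libraries and fell by 2.16 on the log2 scale (SE 0.14, adjusted p = 9.59e-09). IFIT5 was at 55.8 and 56.5 CPM in WT and 26.2 and 23.7 CPM in HSF1-pLVX libraries, with a log2 fold change of -1.17 (SE 0.09, adjusted p = 5.04e-08). IFIT3, the partner that stabilizes IFIT1, was at 197 and 184 CPM in WT and 133 and 128 CPM in HSF1-pLVX libraries and fell by 0.55 on the log2 scale (SE 0.09, adjusted p = 6.71e-05). IFIT3 lies between IFIT2 and IFIT1, so the 2 larger falls flank the smallest of the cluster, with a range of 1.67 over the 4 genes. IFIT2 shares 65 counted bases with LIPA on the opposite strand, which is 1.58% of its bases.

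All 3 large GTPases were lower, with MX1 and MX2 showing the largest fitted falls of the members tested. MX1, a dynamin-like protein that traps viral ribonucleoprotein (hg38, chromosome 21, 41420304 to 41459214), was at 135 and 103 CPM in WT and 14.0 and 7.70 CPM in HSF1-pLVX libraries, from 2540 and 1913 counts to 351 and 153. Its log2 fold change was -3.43 (SE 0.19, adjusted p = 1.46e-09). MX2, which acts against retroviruses and lies beside it (41361943 to 41409390), was low at 4.26 and 3.34 CPM in WT and 0.677 and 0.101 CPM in HSF1-pLVX libraries. Its log2 fold change of -3.17 (SE 0.43, adjusted p = 1.56e-05) rested on 17 and 2 counts in HSF1-pLVX libraries, and it was -5.15 without HSF1-pLVX replicate 1 and -2.47 without replicate 2. GBP1, a guanylate-binding protein that attacks the vacuoles of pathogens, was at 57.2 and 53.5 CPM in WT and 30.2 and 26.5 CPM in HSF1-pLVX libraries and fell by 0.96 on the log2 scale (SE 0.09, adjusted p = 5.66e-07).

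**Figure D2:**
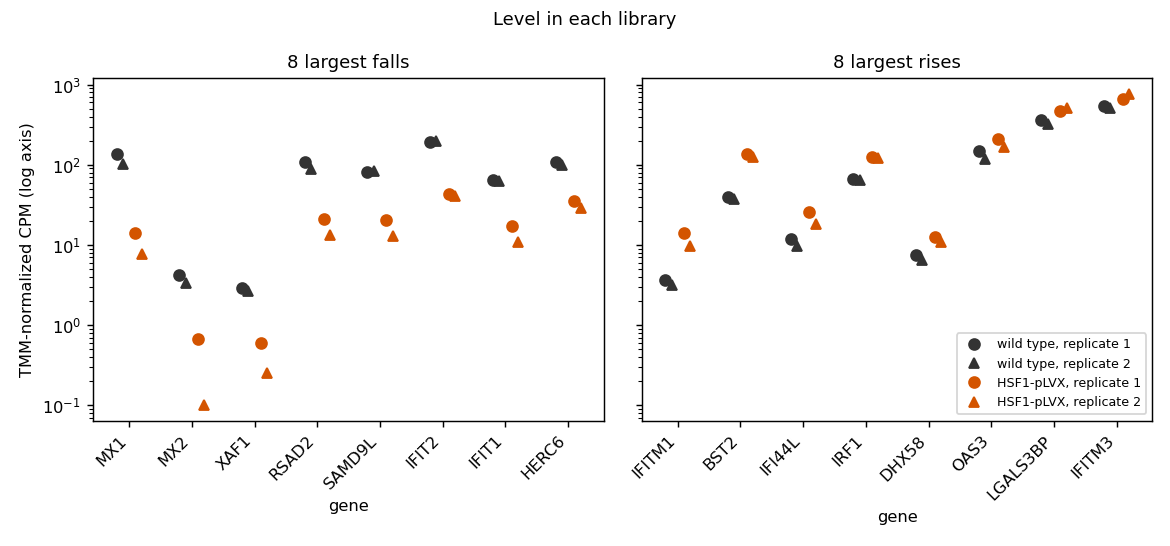
Level in each of the 4 libraries as TMM-normalized CPM (y axis, log scale) for the 8 members with the largest falls (left) and the 8 with the largest rises (right), circles for replicate 1 and triangles for replicate 2, WT in black and HSF1-pLVX in orange. In MX1 the WT libraries sit at 135 and 103 CPM and the HSF1-pLVX libraries at 14.0 and 7.70 CPM, and in BST2 the order is the opposite.

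Enzymes that act on nucleotides and RNA were lower as well. RSAD2 encodes viperin, which makes a chain-terminating nucleotide, and CMPK2 is a nucleotide kinase that supplies it. The genes are adjacent on chromosome 2 (hg38 6840570 to 6898239), point in opposite directions and share 14 counted bases. RSAD2 was at 107 and 89.2 CPM in WT and 21.3 and 13.2 CPM in HSF1-pLVX libraries, a log2 fold change of -2.49 (SE 0.16, adjusted p = 5.77e-09). CMPK2 was at 21.3 and 18.7 CPM in WT and 7.29 and 5.39 CPM in HSF1-pLVX libraries, with a log2 fold change of -1.65 (SE 0.15, adjusted p = 2.40e-07). ISG20, an RNA exonuclease, fell by 0.66 on the log2 scale (SE 0.13, adjusted p = 0.000402), from 16.1 and 19.5 CPM in WT to 11.0 and 11.7 CPM in HSF1-pLVX libraries.

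PARP9, DTX3L and PARP14 modify proteins with ADP-ribose or ubiquitin and form a cluster on chromosome 3 (hg38 122527924 to 122730840). PARP9 was at 96.3 and 88.4 CPM in WT and 52.3 and 43.5 CPM in HSF1-pLVX libraries, a log2 fold change of -0.94 (SE 0.10, adjusted p = 1.01e-06). DTX3L, the ligase that pairs with PARP9 and is read from the same promoter region in the opposite direction, was at 119 and 117 CPM in WT and 86.5 and 75.9 CPM in HSF1-pLVX libraries, with a log2 fold change of -0.54 (SE 0.09, adjusted p = 0.0001). PARP14 was at 172 and 162 CPM in WT and 151 and 123 CPM in HSF1-pLVX libraries, a log2 fold change of -0.29 (SE 0.10, adjusted p = 0.0237), a call that did not hold without WT replicate 1 (adjusted p = 0.0722) or without HSF1-pLVX replicate 2 (adjusted p = 0.323). The single ISRE match of the PARP9 window is the same 10 bases as the one printed for DTX3L.

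SAMD9 and SAMD9L are paralogs that restrict poxviruses and cell growth and lie next to each other on chromosome 7 (hg38 93099513 to 93148369). SAMD9 was at 317 and 319.6 CPM in WT and 158 and 116 CPM in HSF1-pLVX libraries, a log2 fold change of -1.22 (SE 0.12, adjusted p = 7.49e-07). SAMD9L was at 80.3 and 82.9 CPM in WT and 20.3 and 12.8 CPM in HSF1-pLVX libraries, with a log2 fold change of -2.28 (SE 0.15, adjusted p = 5.95e-09). The window of SAMD9 holds the ISRE core and that of SAMD9L does not.

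The OAS enzymes make a short oligoadenylate that activates RNase L, and EIF2AK2 encodes PKR, a kinase that stops translation on sensing double-stranded RNA. Of these 5 genes 2 were higher and 0 lower. OAS1 was at 45.8 and 41.7 CPM in WT and 41.8 and 34.6 CPM in HSF1-pLVX libraries and OAS2 at 51.9 and 40.0 CPM in WT and 49.9 and 32.6 CPM in HSF1-pLVX libraries, with overlapping groups in both and log2 fold changes of -0.19 (SE 0.10, adjusted p = 0.117) and -0.15 (SE 0.16, adjusted p = 0.422). Leaving out WT replicate 2 or HSF1-pLVX replicate 1 brought both past the threshold as lower, and OAS2 was above 0 without either of the other libraries. OAS3, which lies between them on chromosome 12 (hg38 112906777 to 113011723), was higher, from 147 and 119 CPM in WT to 211 and 169 CPM in HSF1-pLVX libraries, a log2 fold change of 0.51 (SE 0.12, adjusted p = 0.00175). OASL, a relative that lacks the enzyme activity, was at 22.3 and 19.5 CPM in WT and 24.3 and 26.1 CPM in HSF1-pLVX libraries, a log2 fold change of 0.27 (SE 0.11, adjusted p = 0.0361). The OASL call did not hold without WT replicate 2 or HSF1-pLVX replicate 2. It was also lost with DESeq2's size factors, with DESeq2's Wald test and with no filter on low counts. Over the fits without 1 library its log2 fold change ran from 0.18 to 0.39. EIF2AK2 was at 119 and 124 CPM in WT and 142 and 109 CPM in HSF1-pLVX libraries, its groups overlapped, and the log2 fold change was 0.05 (SE 0.11, adjusted p = 0.709).

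The membrane restriction factors stood at the other end. BST2 encodes tetherin, which holds budding virus at the cell surface. It rose from 39.4 and 37.2 CPM in WT to 136 and 126 CPM in HSF1-pLVX libraries, a log2 fold change of 1.77 (SE 0.09, adjusted p = 5.61e-10), or 3.42-fold in the mean CPM. IFITM1 and IFITM3, which hinder the fusion of virus with the cell membrane, are neighbours on chromosome 11. IFITM1 rose from 3.68 and 3.18 CPM in WT to 14.1 and 9.77 CPM in HSF1-pLVX libraries, with a log2 fold change of 1.81 (SE 0.20, adjusted p = 1.83e-06). IFITM1 shares 351 counted bases, 32.5% of its own, with IFITM2 on the same strand, and reads of this family can be split between near-identical copies, so its size is uncertain. IFITM2 had 2363 and 2261 counts in WT and 4776 and 4591 in HSF1-pLVX libraries. IFITM3 was at 547 and 516 CPM in WT and 657 and 765 CPM in HSF1-pLVX libraries, a log2 fold change of 0.42 (SE 0.10, adjusted p = 0.0026), and was not called without HSF1-pLVX replicate 2 (adjusted p = 0.0827).

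The remaining members went both ways, with 4 lower and 4 higher of 8 tested. XAF1, a promoter of apoptosis, was low at 2.88 and 2.64 CPM in WT and 0.597 and 0.252 CPM in HSF1-pLVX libraries, with a log2 fold change of -2.63 (SE 0.36, adjusted p = 1.64e-05). Over the fits without 1 library its log2 fold change ran from -3.42, without HSF1-pLVX replicate 1, to -2.19. Opposite XAF1 lies PRAL, over 38.3% of its counted bases, with at most 3 counts in any library. EPSTI1 was at 24.1 and 20.6 CPM in WT and 13.9 and 9.77 CPM in HSF1-pLVX libraries and fell by 0.91 on the log2 scale (SE 0.15, adjusted p = 8.70e-05). IFI6, a membrane protein that protects against flaviviruses, was at 122 and 109.7 CPM in WT and 77.2 and 49.0 CPM in HSF1-pLVX libraries, with a log2 fold change of -0.87 (SE 0.15, adjusted p = 0.000139). IFI35 was at 17.0 and 15.8 CPM in WT and 14.2 and 11.8 CPM in HSF1-pLVX libraries, a log2 fold change of -0.33 (SE 0.13, adjusted p = 0.0325), and was not called without WT replicate 1 (adjusted p = 0.147) or HSF1-pLVX replicate 2 (adjusted p = 0.26).

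IFI44L and IFI44 are neighbours on chromosome 1 (hg38 78619922 to 78664078) and were both higher. IFI44L rose from 11.8 and 9.58 CPM in WT to 25.4 and 18.4 CPM in HSF1-pLVX libraries, a log2 fold change of 1.04 (SE 0.16, adjusted p = 4.02e-05). IFI44 was at 30.5 and 29.9 CPM in WT and 38.5 and 34.9 CPM in HSF1-pLVX libraries, with a log2 fold change of 0.28 (SE 0.09, adjusted p = 0.0156), and was not called without HSF1-pLVX replicate 1 (adjusted p = 0.15). LGALS3BP, a secreted glycoprotein, was at 366 and 324 CPM in WT and 469 and 504 CPM in HSF1-pLVX libraries, a log2 fold change of 0.49 (SE 0.10, adjusted p = 0.000503). TRIM22, a ligase that restricts several viruses, was at 196 and 209.8 CPM in WT and 245 and 236 CPM in HSF1-pLVX libraries, a log2 fold change of 0.25 (SE 0.09, adjusted p = 0.0254). The TRIM22 call was lost without WT replicate 1, HSF1-pLVX replicate 1 or HSF1-pLVX replicate 2, at adjusted p of up to 0.113. It was also lost with the replicate block, with DESeq2's size factors and with no filter on low counts. The row used for IFI27 was not tested, with 8 and 12 counts in WT and 1 and 0 in HSF1-pLVX libraries. The count ratio of this row was 0.0415 (exact 95% interval 0.00100 to 0.260, counting error only). The deposited normalized values hold 2 rows under the symbol IFI27, and the other row was not looked up.

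In total 22 members form 9 clusters of genes within 150000 bases of the next member. In 5 of the clusters (IFIT, MX, SAMD9, RSAD2 with CMPK2, and PARP9 with DTX3L and PARP14) every member was lower, and in 2 (IFITM and IFI44) every member was higher. The HERC pair held 1 lower gene and the OAS trio 1 higher gene beside members that were not called. In none of the 9 was 1 member called higher and another lower. Of the 43 tested members 58.1% were lower and 27.9% higher, beside 33.2% and 32.7% of all genes. How often neighbouring genes outside the list share a direction was not tested.

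**Figure D3:**
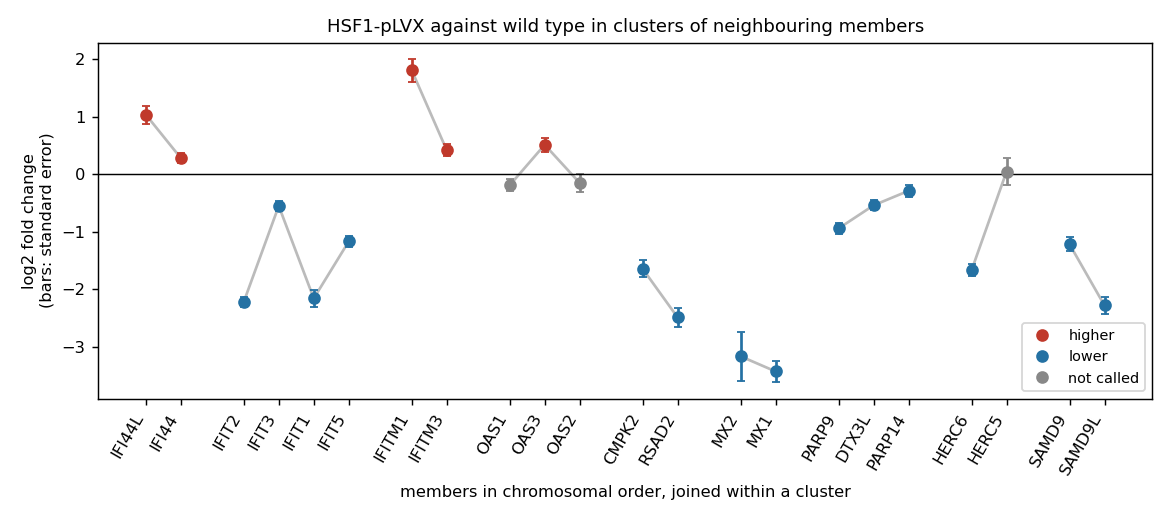
Log2 fold change of HSF1-pLVX against WT cells (y axis, bars for the standard error) for the 22 members in 9 chromosomal clusters, in order along the chromosome and joined by lines within a cluster, coloured by call. The values within a cluster spread by up to 1.72, between HERC6 and HERC5, and by as little as 0.26, between MX2 and MX1.

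By the rule stated for these data, a ratio of the deposited normalized values above 2 or below 0.5 in both same-numbered pairs, 13 members were lower and 2 (BST2 and IFITM1) were higher. Over all 22321 rows of those deposited values 6.42% were lower and 5.00% higher. The rule makes no use of the spread, and its ratios shrink for genes with few counts.

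The replicate libraries of HSF1-pLVX cells differed in the level of these genes. On log2(CPM + 0.5), HSF1-pLVX replicate 1 was above replicate 2 in 39 of 43 members (90.7%), with a median difference of 0.26, beside 51.6% and a median of 0.01 over all genes tested. Among the 25 members called lower it was above in 24. MX1 was at 14.0 and 7.70 CPM and IFI6 at 77.2 and 49.0 CPM in these replicates. In WT cells replicate 1 was above replicate 2 in 32 members (74.4%), with a median of 0.10, beside 48.8% of all genes. The difference between groups in a same-numbered pair was larger, with a median of -0.46 in pair 1 and -0.56 in pair 2. The members called in the full comparison, 25 lower and 12 higher, kept their direction with any 1 library left out.

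**Figure D4:**
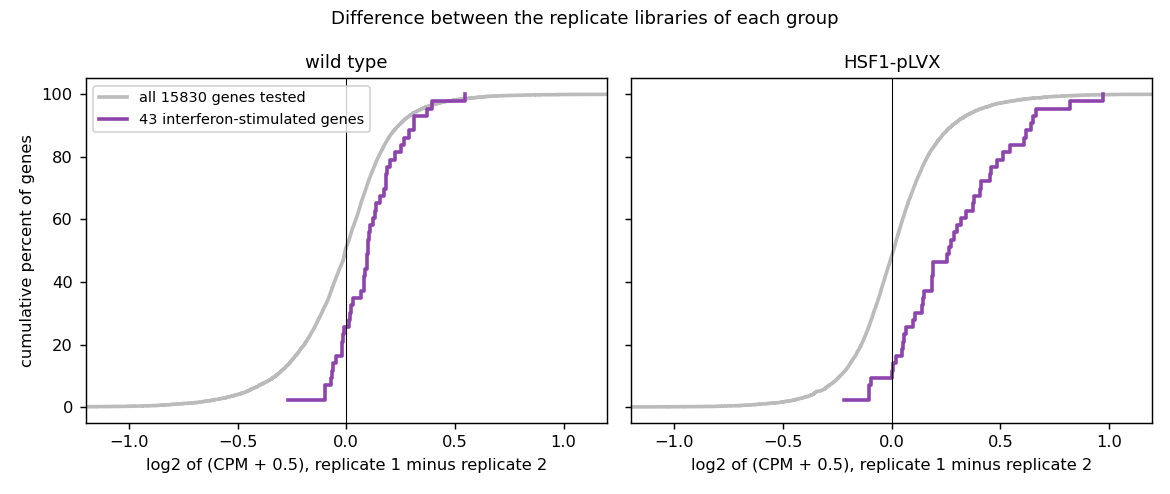
Cumulative percent of genes (y axis) against the difference between replicate 1 and replicate 2 in log2 of CPM + 0.5 (x axis), for WT (left) and HSF1-pLVX cells (right), with the 43 members in purple and all 15830 tested genes in grey. In HSF1-pLVX cells the line of the members lies to the right of 0 for 90.7% of them and that of all genes for 51.6%.

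The genes upstream of the members were read from fixed lists. Interferon genes were hardly detected. Of 21 ligand genes only IFNE passed the filter, at 1.17 and 0.915 CPM in WT and 2.47 and 2.06 CPM in HSF1-pLVX libraries, a log2 fold change of 1.12 (SE 0.30, adjusted p = 0.00406), and the other 20 had no more than 9 counts in any library. IFNE encodes interferon epsilon, a type I interferon made by epithelia of the reproductive tract. Among the 6 receptor chains 2 (33.3%) were lower and 3 (50%) higher, beside 33.2% and 32.7% of all genes. IFNAR1, a chain of the type I receptor, was at 93.1 and 101 CPM in WT and 57.8 and 54.5 CPM in HSF1-pLVX libraries and fell by 0.79 on the log2 scale (SE 0.09, adjusted p = 1.61e-06), while its partner IFNAR2 was at 9.91 and 10.8 CPM in WT and 14.3 and 13.3 CPM in HSF1-pLVX libraries, a log2 fold change of 0.41 (SE 0.13, adjusted p = 0.00987). IFNLR1, the specific chain of the type III receptor, was at 21.1 and 20.3 CPM in WT and 5.78 and 6.59 CPM in HSF1-pLVX libraries, a log2 fold change of -1.75 (SE 0.13, adjusted p = 2.60e-08). Its partner IL10RB was not called at 25.1 and 22.7 CPM in WT and 26.6 and 29.4 CPM in HSF1-pLVX libraries (log2 fold change 0.23, SE 0.10, adjusted p = 0.0616). The receptor chains for interferon gamma were both higher. IFNGR1 was at 67.6 and 75.8 CPM in WT and 154 and 172 CPM in HSF1-pLVX libraries, with a log2 fold change of 1.19 (SE 0.10, adjusted p = 6.92e-08), and IFNGR2 at 12.0 and 10.4 CPM in WT and 14.1 and 15.8 CPM in HSF1-pLVX libraries, with a log2 fold change of 0.42 (SE 0.13, adjusted p = 0.0109). The calls for IFNAR2 and IFNGR2 did not hold in DESeq2's Wald test.

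The Janus kinases and STATs went both ways. JAK2 fell by 0.67 on the log2 scale (SE 0.12, adjusted p = 0.000147), from 17.7 and 17.0 CPM in WT to 11.0 and 10.8 CPM in HSF1-pLVX libraries, and JAK1, shared by the receptors of all 3 interferon types, was at 246 and 221 CPM in WT and 192 and 193 CPM in HSF1-pLVX libraries, with a log2 fold change of -0.28 (SE 0.09, adjusted p = 0.015). TYK2, the other kinase of the type I receptor, was at 86.7 and 83.0 CPM in WT and 91.0 and 97.0 CPM in HSF1-pLVX libraries (log2 fold change 0.15, SE 0.08, adjusted p = 0.139). STAT3 and STAT5A were also not called, at log2 fold changes of -0.05 and -0.09. STAT4 rose from 2.72 and 2.74 CPM in WT to 18.4 and 16.6 CPM in HSF1-pLVX libraries, with a log2 fold change of 2.68 (SE 0.15, adjusted p = 2.12e-09). STAT6 and STAT5B, which serve cytokines other than interferons, were higher by 0.67 and 0.72 on the log2 scale.

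Of the 22 genes of sensors and adaptors outside the members 18 were tested. Of these 10 (55.6%) were lower and 5 (27.8%) higher, beside 33.2% and 32.7% of all genes. The 3 largest falls were TLR2 (-4.04), TLR4 (-2.51), both receptors for bacterial products, and MYD88 (-2.10), the adaptor below them. The TLR2 value (SE 0.37) rested on 65 and 89 counts in WT and only 5 and 6 in HSF1-pLVX libraries. MYD88 was at 168 and 161 CPM in WT and 39.7 and 36.8 CPM in HSF1-pLVX libraries. The 3 largest rises were MB21D1 (2.32), which encodes the DNA sensor cGAS, IFI16 (1.80) and IRF5 (1.01). MB21D1 was at 4.95 and 4.79 CPM in WT and 24.5 and 24.1 CPM in HSF1-pLVX libraries. Of 21 negative regulators tested 10 (47.6%) were lower and 6 (28.6%) higher, beside the same shares of all genes. SOCS1 (-1.61), an inhibitor of Janus kinases, CYLD (-1.40) and SAMHD1 (-0.80) fell most, and RNASEH2A (1.61), PTPN2 (1.01) and RNASEH2B (0.94) rose most. RNASEH2A and RNASEH2B are subunits of the enzyme that removes RNA from hybrids with DNA.

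A further 61 interferon-stimulated genes outside the 45 were counted in the same fit. Of the 56 tested, 21 (37.5%) were lower and 19 (33.9%) higher, beside 33.2% and 32.7% of all genes, and their median log2 fold change was -0.03. At least 2-fold, 9 (16.1%) were lower and 9 (16.1%) higher, beside 14.0% and 14.9% of all genes. CD274, which encodes PD-L1, went from 16.5 and 22.0 CPM in WT to 5.06 and 3.83 CPM in HSF1-pLVX libraries, a log2 fold change of -2.10 (SE 0.17, adjusted p = 9.17e-08). TRIM34, with no more than 12 counts in any library, and DDX60L followed at -1.76 and -1.57. C1R and C1S, complement proteases encoded by neighbouring genes on chromosome 12, rose by 2.85 and 1.99 on the log2 scale, and TNFSF10, the death ligand TRAIL, by 2.57, from 13.6 and 13.1 CPM in WT to 68.8 and 90.1 CPM in HSF1-pLVX libraries. The difference in calls between the 45 members and the 61 further genes was not tested, since both lists were drawn up with results of these data known.

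**Figure D5:**
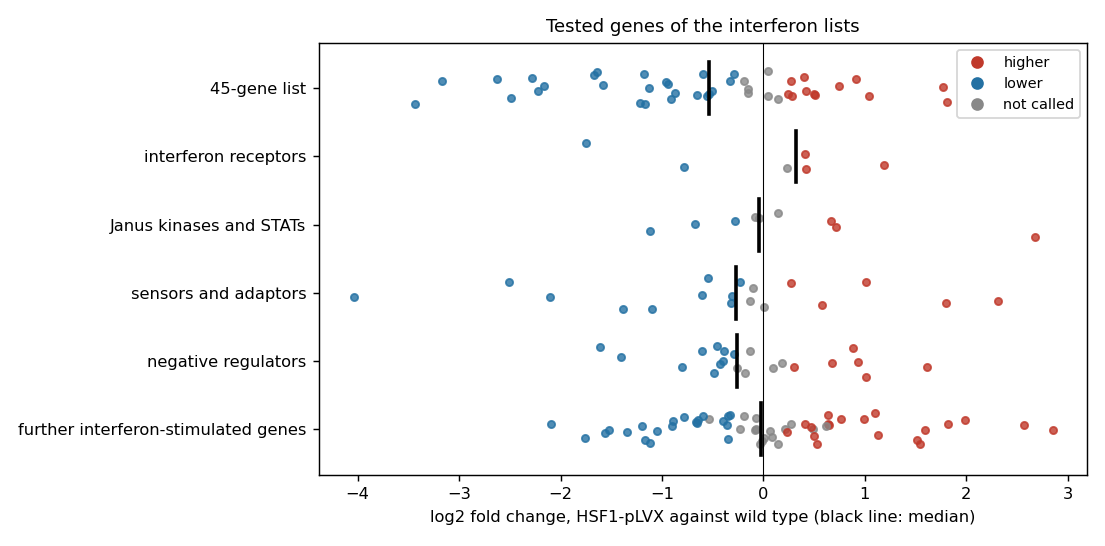
Log2 fold change of HSF1-pLVX against WT cells (x axis) for each tested gene of the 45-gene list and of 5 further lists (rows), coloured by call at an adjusted p of 0.05, with a black line at the median of each list. The median of the 45-gene list is -0.54 over 43 genes and that of the further interferon-stimulated genes is -0.03 over 56.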

How the data were processed

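RNA-seq counts of 2 WT and 2 HSF1-pLVX libraries were analysed, grouped by their labels. Per the study's methods, the authors aligned paired-end reads to hg38 with HISAT2 2.0.5, processed them with SAMtools 1.13 and counted them per gene with featureCounts 1.6.5. The deposited counts are raw counts of 63856 genes and were used as they stand, beside the counted length of each gene; the strand and overlap settings are not given in the sources used here. The authors also deposited log2 values normalized with DESeq2 1.32.0, which were used only for the ratio rule. A blind variance-stabilizing transformation of the counts gave these values for the members to within 5.8e-05.

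The test across genes was edgeR's quasi-likelihood test (version 4.0.16, under R 4.3.3) with TMM factors and the filterByExpr filter. The p-values were adjusted by Benjamini-Hochberg over 15830 genes with calls at 0.05. In simulated data with 200 changed genes of 15397, the test recovered 78.8% of 2-fold and 98.0% of 4-fold changes. Of its calls there 5.59% were false. Far more genes were called in the real data, so the simulation does not cover that setting. Fold changes are fitted log2 values of HSF1-pLVX minus WT. Over all genes tested, same-numbered libraries did not deviate together (correlation 0.000765). Among the 43 tested members they leaned the same way, with replicate 1 above replicate 2 in 74.4% in WT and 90.7% in HSF1-pLVX cells. The main fit used no block, and a fit with the replicate number as a block is given below. The p-values measure the spread between these 2 libraries a group. With 2 against 2, an exact permutation test of a single gene could not reach the threshold, and the p-values rest on a spread shared across genes. Intervals of count ratios are exact 95% binomial intervals from scipy 1.17.1. Alternatives covered scaling, the low-count filter, DESeq2 1.42.0, the block, the thresholds and each library left out in turn.

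Promoter windows came from RefSeq and were searched on both strands for the core letters of the ISRE, the GAS site and the heat shock element, which are typed into the search and named here without their letters. The 45 members and the lists were chosen with earlier results of these data known. Values in every library are given for the 8 largest called rises and falls, for STAT and IRF members and for members with neighbouring or overlapping genes, and values of the remaining members were added. Outside the members, the receptor chains, Janus kinases and STATs and the 3 largest called rises and falls of each other list are named, apart from a result that is not reported here.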

Additional observations from a re-analysis of the deposited data

How the results depend on the processing

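The members' counts of calls, 12 higher and 25 lower, stayed within 1.5 times under DESeq2's size factors, library size alone, no filter on low counts and DESeq2's Wald test. Of all 15830 genes the main fit called 5175 higher and 5253 lower. DESeq2's size factors gave 5005 and 5437, library size alone 5458 and 4751, and DESeq2's Wald test 4129 and 4540. With no filter 5383 were higher and 5529 lower of 32631 genes. The pathway lists held 37 higher and 46 lower genes in the main fit. Without 1 library the median of the members ran from -0.58 to -0.49. In those fits 1 group holds a lone library, which is assumed to vary like the other group. Requiring at least 2-fold left 3 higher and 14 lower members and 17 higher and 18 lower genes of the pathway lists. This follows from the stricter rule, which 14.9% of all genes passed as higher and 14.0% as lower. A ratio of 1.5 in place of 2 gave 5 higher and 20 lower members, and the share of all rows at 1.5 was not counted. In pair 1 alone, added after seeing the data, the median was -0.46; the cause was not tested. With the replicate number as a block, 11 members were higher and 25 lower, beside 5138 and 5171 of all 15830 genes. The median of the members was then -0.54. The block lost the call of TRIM22 (log2 fold change 0.25), changed no other call among the members, and left edgeR with an infinite prior degrees of freedom. The numbers do not mark a shared culture in the sources used here.

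Across the 9 refits the called members OASL, TRIM22, IFI35, PARP14, IFI44 and IFITM3 lost their call at least once, and none of the 37 called members changed direction. All of these but IFITM3 lost it in at least 1 refit that kept every library. With library size alone IFI35 and PARP14 were lost, and with DESeq2's Wald test IFI35, IFI44 and OASL. The genes that changed direction were not called in the comparison itself. STAT3 was at 0.013 with library size alone. Over the fits without 1 library, STAT3 ran from -0.080 to 0.0083, STAT5A from -0.20 to 0.021, OAS2 from -0.50 to 0.12, HERC5 from -0.23 to 0.41, IRF9 from -0.060 to 0.32 and EIF2AK2 from -0.15 to 0.23. For these the cause was not tested. Few counts in HSF1-pLVX libraries limit MX2, XAF1 and the rows used for IFI27 and IRF7. For IRF7 the choice of row also matters. Its alternate-contig row held 63 and 58 counts in WT and 17 and 14 in HSF1-pLVX libraries. The other deposited row for IFI27 was not looked up.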
